A study of Homo sapiens with 8 samples.

Results

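The 10 genes described here encode globin chains or proteins that red cell precursors use to make haemoglobin. They were taken by gene name, from 58434 rows for NCI-H1688 and 17169 rows for NCI-H146, and comprised the alpha-like globin genes HBA1, HBA2, HBZ and HBQ1, the beta-like globin genes HBG1, HBG2 and HBE1, the haem synthesis gene ALAS2, and the erythroid transcription factor genes GATA1 and TAL1. The genes were selected on the measured values of both lines, above all the lower HBA2 counts of the NCI-H146 knockdown libraries, so the differences of these 10 genes are given as a description: no p-value is printed for them, and whether one passed the threshold is stated as a property of the fit across all genes that supports nothing. NCI-H1688 and NCI-H146 are established human lines, given by the labels as small cell lung cancer and as epithelial cells. In each line, a lentivirus brought in a short hairpin RNA (shRNA) that was either a control or directed at KLF9, which encodes a zinc-finger factor of the Krüppel-like family, and both groups were kept in puromycin for 2 weeks to give stable lines. There were 4 groups of 2 libraries each, numbered 1 and 2 in all groups but the NCI-H146 control, whose libraries were numbered 2 and 3. The labels speak of biological replicates without saying whether these came from separate infections, so each spread and p-value here measures the difference between these libraries.

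Haemoglobin is a tetramer of alpha-like and beta-like globin chains, each holding a haem group. The alpha-like genes lie together on chromosome 16 in the order of their use in development, from embryonic HBZ to the duplicated adult genes HBA2 and HBA1, and are switched on in red cell precursors by an upstream enhancer region located in introns of the neighbouring gene NPRL3. The beta-like genes form a separate cluster on chromosome 11, with embryonic HBE1 and the duplicated fetal genes HBG2 and HBG1. GATA1, TAL1 and the Krüppel-like factor KLF1 are master regulators of the erythroid programme, and the CACCC boxes that KLF1 binds in globin promoters belong to the sequence class that Krüppel-like factors recognise. Alpha globin is also known to be made at low levels by some cells outside the blood, including endothelial and epithelial cells.

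On GRCh38 with the GENCODE 29 annotation, HBZ lies on the plus strand of chromosome 16 at 152687 to 154503, HBA2 at 172876 to 173710, HBA1 at 176680 to 177522 and HBQ1 at 180453 to 181181. HBG1 starts the chromosome 11 group at 5248079 to 5249859 on the minus strand, and HBG2 and HBE1 follow at 5253190 and 5268345, and both are annotated with long transcripts that end at 5505605 and 5505652. ALAS2 and GATA1 lie on chromosome X at 55009055 to 55031064 and 48786554 to 48794311, and TAL1 on chromosome 1 at 47216290 to 47232220. All 10 are annotated as protein coding.

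The results turn on HBA2, HBA1 and HBQ1, so the coding part of their first exons is shown to make plain which of these genes reads can tell apart. Each stretch is 95 bases long and is written 5′ to 3′ on the plus strand from the start codon, at chr16:172913-173007 for HBA2, chr16:176717-176811 for HBA1 and chr16:180487-180581 for HBQ1 (GRCh38, GENCODE 29 transcripts). Capitals mark bases that differ from HBA2 at the same position.
HBA2: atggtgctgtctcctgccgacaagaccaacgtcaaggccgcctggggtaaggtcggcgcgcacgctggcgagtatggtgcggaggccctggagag
HBA1: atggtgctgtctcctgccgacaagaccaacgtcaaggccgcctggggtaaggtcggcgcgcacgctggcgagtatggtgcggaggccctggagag
HBQ1: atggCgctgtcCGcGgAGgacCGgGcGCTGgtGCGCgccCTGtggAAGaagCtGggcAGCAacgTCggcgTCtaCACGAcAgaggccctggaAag
HBA1 was identical to HBA2 in this stretch, and HBQ1 differed from HBA2 at 40 of the 95 bases. Over the main transcripts, 79.9% of the 100-base windows of HBA2 were also found in HBA1, and 51.5% of those of HBG2 in HBG1. None of the 437 windows of HBQ1 occurred in HBA2 or HBA1. Reads of HBA1 and HBA2 can therefore be split between these genes, or left out, in a way that depends on the counting. The sources used here do not give the counting. Reads of HBQ1 have no such copy among them.

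The NCI-H146 values were whole-number read counts, with 15406264 to 16109803 counts per library, and the NCI-H1688 values were TPM, an abundance scaled by gene length. Levels in NCI-H146 are given as CPM, counts scaled to library size. KLF9 fell there (control 64.4 ± 3.62 CPM, knockdown 28.6 ± 5.19 CPM, SD, n = 2 each), with an adjusted p of 0.0131 in edgeR's quasi-likelihood test and a log2 fold change of -1.17. The fold change was -1.08 without control replicate 2 and -1.23 without control replicate 3, and KLF9 passed the threshold in neither of these fits. In NCI-H1688, KLF9 went against the labels. The controls stood at 0.298 and 0.644 TPM, and the libraries labelled as knockdown at 1.95 and 1.60 TPM (limma adjusted p = 0.0952). KLF9 reached the minimum mean for testing there through the libraries labelled as knockdown alone. Every direction in that line is therefore given for libraries as labelled. INSM1, a defining neuroendocrine factor of small cell lung cancer, was listed at 0 in all 4 NCI-H1688 libraries and had no row in NCI-H146. Of the 5 small cell markers tested in NCI-H146, 4 (CHGA, SYP, SCG3 and DLL3) rose at an edgeR adjusted p under 0.05, against 8.01% of all genes tested. They rose from low levels, CHGA from 3 and 9 counts to 36 and 50. CHGA passed edgeR's filter on low counts through the knockdown libraries alone, so its rise is a description. The epithelial markers EPCAM, KRT8, KRT18 and CDH1 were read in every library. In NCI-H146, CDH1 was low, at 7 and 14 counts in the controls and 44 and 34 in the knockdown libraries. CDH1 rose there (edgeR adjusted p = 0.0193), though its controls alone would not have passed the filter on low counts. EPCAM, KRT8 and KRT18 did not pass the test in that line. In NCI-H1688, CDH1 rose, KRT8 and KRT18 fell (limma adjusted p = 0.0348, 0.00436 and 0.00532) and EPCAM did not pass. Mitochondrially encoded genes took 8.56% of the counts of NCI-H146 KLF9 shRNA replicate 1 and 0.897% to 1.20% of those of the other 3 libraries.

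Of the 10 genes, 7 had a row in NCI-H146, and 3 of these (HBA2, HBA1 and HBQ1) passed the filter on low counts that edgeR applies. HBG1, ALAS2 and GATA1 had no row, and the smallest total over the 4 libraries of any row was 2 counts. Of the 3 genes tested, 2 were called lower in the knockdown libraries at an edgeR adjusted p under 0.05, HBA2 and HBA1. Over all 13129 genes tested 17.1% were called, with 9.12% lower and 8.01% higher. The members were chosen with this comparison known, so nothing is read from that count.

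**Figure D1:**
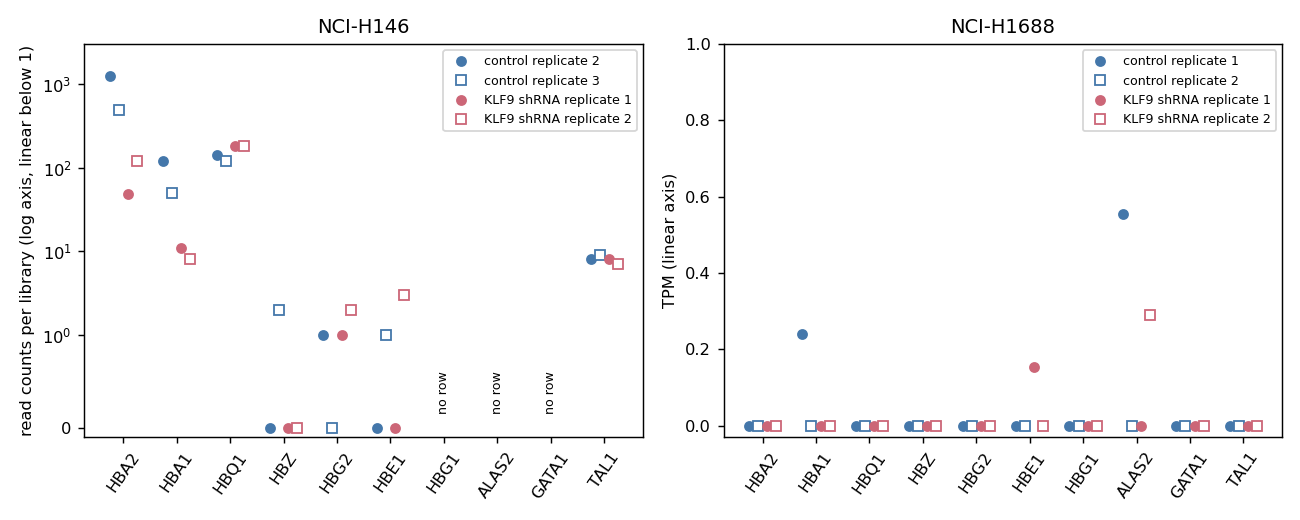
Values of the 10 genes in every library, as read counts for NCI-H146 (left, log axis that is linear below 1) and TPM for NCI-H1688 (right, linear axis); blue marks control libraries, red KLF9 shRNA libraries, and circles and squares the lower and higher replicate number. HBA2 and HBA1 are lower in both NCI-H146 knockdown libraries than in both controls, HBQ1 is slightly higher, and in NCI-H1688 the highest value is 0.555 TPM.

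HBA2, the adult alpha gene that gives most of the alpha globin messenger in red cells, had 1250 and 486 counts in the NCI-H146 control libraries 2 and 3, and 48 and 120 counts in KLF9 shRNA libraries 1 and 2. As CPM these were 84.2 and 28.7 in the controls against 3.25 and 7.49 in the knockdown libraries. Both knockdown libraries were thus below both controls, and the controls themselves differed widely, with replicate 2 higher than replicate 3. The means were 56.5 ± 39.3 and 5.37 ± 3.00 CPM (SD, n = 2 each), a 10.5-fold difference. The fitted log2 fold change was -3.39 (standard error 0.477). HBA2 ranked 22 among the 13129 genes ordered from the largest fall. The size of the difference depended on the library: the log2 fold change was -2.38 without control replicate 2, -3.97 without control replicate 3, -2.90 without KLF9 shRNA replicate 1 and -4.11 without KLF9 shRNA replicate 2. With the mitochondrially encoded genes left out of all libraries it was -3.40.

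HBA1, whose protein is identical to that of HBA2, had 121 and 50 counts in the controls and 11 and 8 counts in the knockdown libraries. These are 8.15 and 2.95 CPM against 0.745 and 0.499 CPM, so the groups again did not overlap and control replicate 2 was again the highest. Means were 5.55 ± 3.68 and 0.622 ± 0.174 CPM, the fitted log2 fold change was -3.14 (standard error 0.560), and HBA1 ranked 31 from the largest fall. Without control replicate 2 the log2 fold change was -2.20 and HBA1 was no longer called. Summed with HBA2, so that the split of counted shared reads between them no longer mattered, the pair had a log2 fold change of -3.37. Any shared reads that the counting left out are missing from this sum too. HBA2 outnumbered HBA1 by 10.3 and 9.72 to 1 in the controls, by 4.36 to 1 in KLF9 shRNA replicate 1 and by 15.0 to 1 in replicate 2, the last 2 ratios resting on 11 and 8 HBA1 counts.

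HBQ1, the theta globin gene at the end of the alpha cluster, whose product has no established place in haemoglobin, did not share this pattern. It had 140 and 121 counts in the controls and 181 and 182 counts in the knockdown libraries, or 9.43 and 7.14 CPM against 12.3 and 11.4 CPM. The knockdown libraries were above both controls by a small margin. The means were 8.29 ± 1.62 and 11.8 ± 0.635 CPM (SD, n = 2 each), the fitted log2 fold change was 0.51 (standard error 0.334), and HBQ1 was not called. Leaving out a library moved this between 0.32 and 0.76. Groups that do not overlap, as here and for HBA2 and HBA1, were found for 62.5% of all genes tested, and 31.9% of genes were lower without overlap.

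The make-up of the reads of these globin genes differed between the groups. HBA1 and HBA2 together gave 1371 and 536 of the 1512 and 660 counts of the globin genes among the 10 in the controls (HBB, with 2 counts, MB, CYGB and ADGB are not included), or 90.7% and 81.2%. In the knockdown libraries they gave 59 of 241 and 128 of 315 counts, or 24.5% and 40.6%. HBQ1 went from 9.26% and 18.3% of these counts in the controls to 75.1% and 57.8% in the knockdown libraries. Per kilobase of exon, the control mean was 68.3 CPM for HBA2, 15.5 CPM for HBQ1 and 6.65 CPM for HBA1, and in the knockdown libraries the order was HBQ1 at 22.0, HBA2 at 6.49 and HBA1 at 0.745 CPM per kilobase. These shares and orders depend on whether reads shared by HBA1 and HBA2 were counted, which is not given. Left out, they would lower both genes against HBQ1. The exon lengths joined all transcripts of a gene: 827 bases for HBA2, whose main transcript has 576, and 536 for HBQ1. In bulk libraries such as these, fewer cells that make a transcript and less of it per cell cannot be told apart.

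**Figure D2:**
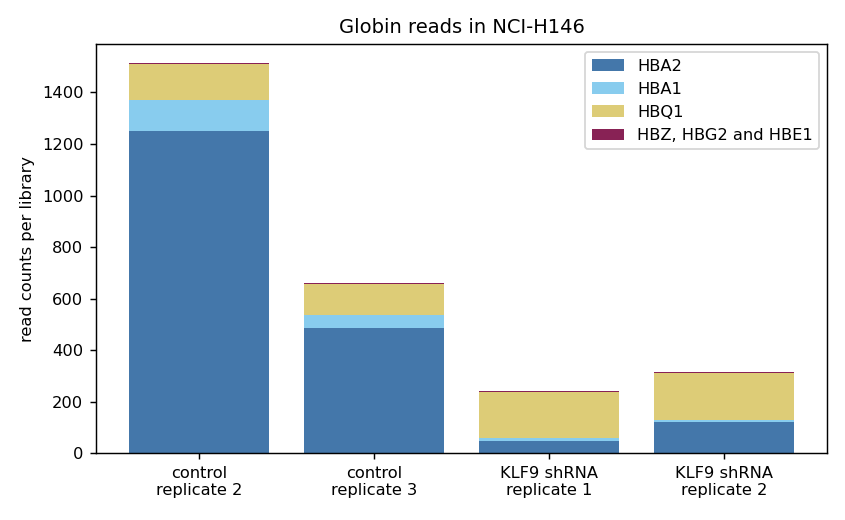
Read counts of the globin genes among the 10 in each NCI-H146 library, stacked from 0. HBA2 and HBA1 make up 90.7% and 81.2% of the bar in the control libraries and 24.5% and 40.6% in the KLF9 shRNA libraries, while the HBQ1 segment stays between 121 and 182 counts.

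The embryonic and fetal globin genes were at the edge of detection in NCI-H146. HBZ, the embryonic alpha-like gene, had 2 counts in control replicate 3 and 0 in the other libraries. The fetal gene HBG2 had 1 and 0 counts in the controls and 1 and 2 in the knockdown libraries, and the embryonic gene HBE1 had 0 and 1 against 0 and 3. A count of 0 in these libraries allows a level of up to 0.186 to 0.195 CPM (3 counts of each total, covering counting error only), so no difference in these 3 genes was detectable at this depth. TAL1, the basic helix-loop-helix factor that acts with GATA1, had 8 and 9 counts in the controls and 8 and 7 in the knockdown libraries, under the filter for testing.

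Most other erythroid markers were similarly scarce, with EPOR an exception. HBB, the adult beta globin gene, had 2 counts in control replicate 3 and 0 in the other NCI-H146 libraries. KLF1 had 1 or 2 counts in each library, SLC4A1, the red cell anion exchanger gene, had at most 2, and AHSP, which encodes the chaperone of free alpha chains, had no row. NFE2, an erythroid and megakaryocytic factor gene, had 14 and 14 counts in the controls and 11 and 8 in the knockdown libraries. The erythropoietin receptor gene EPOR had 151 and 161 against 127 and 166 counts and was not called (log2 fold change -0.05, edgeR adjusted p = 0.928). The 6 erythroid markers with a row of 13 listed summed to 9.92 to 10.6 CPM in the controls and 8.80 to 10.5 CPM in the knockdown libraries, nearly all of it EPOR. The label of erythroid genes thus describes what these genes are known for, and the HBA2 reads came from libraries in which the defining erythroid markers other than EPOR were at or near 0. Leukocyte markers summed to 17.1 to 18.5 CPM in the controls and 16.7 to 18.3 CPM in the knockdown libraries, and endothelial markers to 0.270 to 0.531 and 0.135 to 0.187 CPM. Megakaryocyte and mast cell markers summed to 151 to 180 and 406 to 499 CPM, nearly all of it HDC, which moved opposite to HBA2. The part of other cell types in the HBA2 difference was not tested.

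In NCI-H1688 none of the 10 genes reached the mean of 1 TPM required for testing, and 7 were listed at 0 in all 4 libraries: HBA2, HBG1, HBG2, HBZ, HBQ1, GATA1 and TAL1. HBA1 stood at 0.241 TPM in control replicate 1 and was listed at 0 elsewhere, and HBE1 stood at 0.153 TPM in the library labelled KLF9 shRNA replicate 1 alone. From the spacing of low values in this table and exon lengths, these levels correspond to about 2.8 and 2.1 reads. ALAS2, the erythroid form of the first enzyme of haem synthesis, stood at 0.555 TPM in control replicate 1 and 0.289 TPM in KLF9 shRNA replicate 2, an estimated 16 and 8 reads, and was listed at 0 in the other library of each group. Its values therefore divided the libraries across the groups and not between them. Levels of the lines were scaled separately, and no comparison between HBA2 in NCI-H146 and its listing at 0 in NCI-H1688 was tested.

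The neighbours of HBA2 on chromosome 16 were listed without the 10 genes, so HBA1, which was called lower in NCI-H146, is not among them. Of these 11 neighbouring genes from POLR3K to AXIN1, 10 were tested in NCI-H146, and 2 were called higher and 0 lower. Over all genes, 8.01% were called higher and 9.12% lower, and nothing is read from counts in so short a list. The median log2 fold change of the list was 0.50 against 0.005 over all genes. POLR3K, a subunit of RNA polymerase III, rose from 31.6 ± 3.58 to 87.8 ± 31.8 CPM (a log2 difference of 1.47, edgeR adjusted p = 0.00683), and SNRNP25, a component of the minor spliceosome, from 35.8 ± 1.65 to 73.3 ± 15.1 CPM (1.04, edgeR adjusted p = 0.0217). These 2 genes overlap on opposite strands, as do NPRL3 and MPG, and as RGS11 does with FAM234A and ARHGDIG. Whether counting used strand is not given, so reads of overlapping genes may have been mixed. NPRL3, the GATOR1 subunit gene that holds the alpha globin enhancers, had a log2 fold change of 0.40 (edgeR adjusted p = 0.334), with 1324 and 1445 counts in the controls and 2015 and 1507 in the knockdown libraries. The DNA glycosylase gene MPG was at 0.61, RHBDF1 at -0.55 and, beyond HBQ1, the splicing gene LUC7L at 0.03, FAM234A at 0.17, ARHGDIG at 0.82, PDIA2 at 1.39 and the WNT pathway scaffold gene AXIN1 at 0.22, and none of these passed the test. RGS11, with 3 to 9 counts, was not tested. The calls of POLR3K and SNRNP25 were both lost without control replicate 2 or without control replicate 3.

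In NCI-H1688, 8 of the 11 neighbours were tested, and 2 were called higher and 2 lower, against 16% of all 14754 genes called by limma (9.67% lower and 6.36% higher). The median log2 fold change of the 8 was 0, against -0.021 over all genes. There POLR3K fell from 33.7 ± 1.08 to 19.2 ± 0.514 TPM and SNRNP25 from 49.8 ± 4.75 to 30.9 ± 1.44 TPM (limma adjusted p = 0.00951 and 0.0189, log2 fold changes of -0.78 and -0.67 on the log2(TPM + 1) scale). RHBDF1 and FAM234A rose by 0.41 and 0.54 on that scale (limma adjusted p = 0.0424 and 0.0497). NPRL3, at -0.21, MPG, at 0.15, LUC7L, at -0.05, and AXIN1, at 0.06, did not pass, and RGS11, ARHGDIG and PDIA2 stayed below the mean of 1 TPM. None of these 4 calls was kept when any 1 of the 4 libraries was left out.

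**Figure D3:**
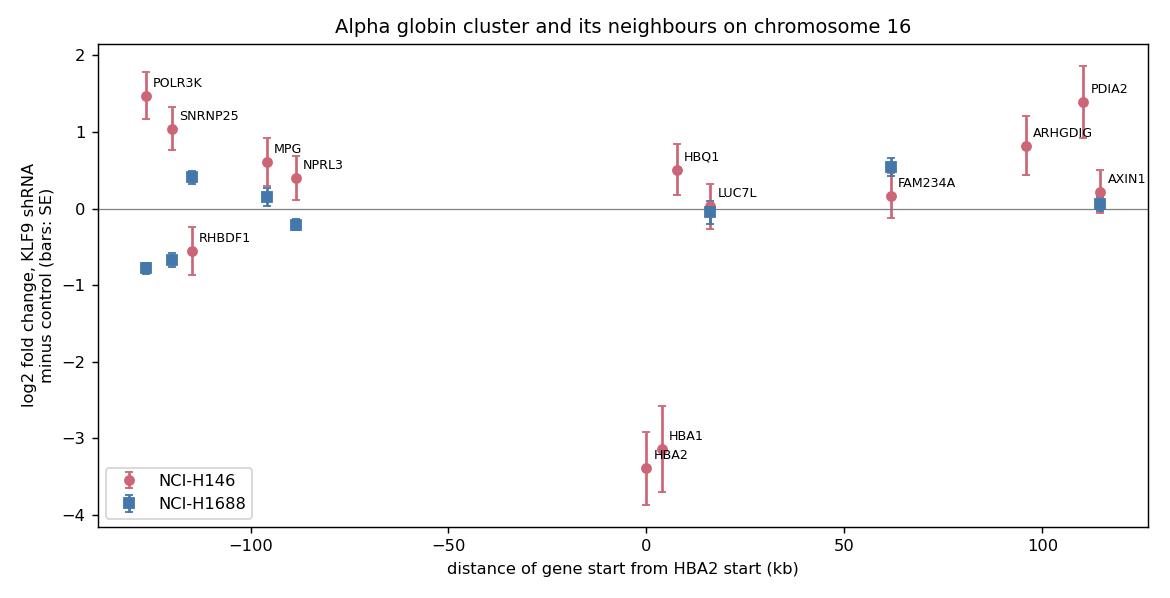
Log2 fold change (KLF9 shRNA minus control, bars show the standard error) of the tested genes around the alpha globin cluster against the distance of each gene's lower-coordinate end from that of HBA2, in kilobases, for NCI-H146 (circles) and NCI-H1688 (squares, on the log2(TPM + 1) scale). In NCI-H146, HBA2 and HBA1 lie at -3.39 and -3.14, while HBQ1 lies at 0.51 and the other tested neighbours between -0.55 and 1.47.

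Other globin genes gave few reads. In NCI-H146, MB (myoglobin) had 2 or 3 counts, CYGB (cytoglobin) 4 to 10 and ADGB (androglobin) 0 to 3, none enough to be tested, and HBD, HBBP1, HBM and NGB had no row. In NCI-H1688, HBB, HBD, HBBP1, HBM and NGB were listed at 0 in all 4 libraries and ADGB reached 0.0105 TPM in control replicate 1. CYGB was at 3.30 and 4.34 TPM in the controls and 5.21 and 4.04 TPM in those labelled as knockdown (log2 fold change 0.22, limma adjusted p = 0.464). MB was at 0.527 and 0.625 TPM against 1.47 and 1.33 TPM, with groups that did not overlap, as for 62.7% of all genes tested, and its mean over the 4 libraries was below the minimum for testing.

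In NCI-H146, 2 of 13 haem synthesis genes rose and 0 fell by edgeR, and their median log2 fold change was 0.54. Over all genes tested, 17.1% were called in NCI-H146, 8.01% of genes being higher and 9.12% lower, and 16% in NCI-H1688, 6.36% higher and 9.67% lower, and the counts of this and the next lists stand beside these shares. UROD, which acts after UROS, rose from 33.4 ± 0.395 to 65.3 ± 9.46 CPM (a log2 difference of 0.97, edgeR adjusted p = 0.0269). ALAS1, the form of ALAS2 used outside red cell precursors, was at 157 and 136 CPM in the controls and 128 and 122 CPM in the knockdown libraries and did not pass (edgeR adjusted p = 0.569). In NCI-H1688, 1 of the 13 genes rose, CPOX, from 21.6 ± 0.453 to 28.6 ± 2.24 TPM (limma adjusted p = 0.0458), and 1 fell by limma, UROD, from 107 ± 1.33 to 75.5 ± 2.18 TPM (limma adjusted p = 0.0127). The list median was -0.03.

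Genes of haem breakdown and iron handling moved in both directions. In NCI-H146, 2 of 17 rose and 3 fell, with a median log2 fold change of 0.04. The ferrireductase gene STEAP3 rose from 6.01 ± 2.02 to 18.4 ± 1.28 CPM and the constitutive haem oxygenase gene HMOX2 from 64.3 ± 2.23 to 115 ± 6.16 CPM (edgeR adjusted p = 0.00786 and 0.0420). The inducible haem oxygenase gene HMOX1 fell from 9.02 ± 4.58 to 3.66 ± 0.294 CPM and NCOA4, the receptor that delivers ferritin for breakdown, from 190 ± 21.4 to 98.3 ± 17.8 CPM (edgeR adjusted p = 0.0398 and 0.0307). The other gene that fell was FTL, the ferritin light chain gene, at 1750 ± 295 and 829 ± 92.6 CPM. Its edgeR adjusted p rounded to 0.05, at the threshold, and its call was not followed across the alternatives. In NCI-H1688, 6 of 17 rose and 2 fell, with a median of 0.14, among them the ferritin heavy chain gene FTH1 (4680 ± 108 to 8260 ± 186 TPM), the transferrin receptor gene TFRC (108 ± 5.32 to 154 ± 3.36 TPM) and the haem-regulated repressor gene BACH1 (15.7 ± 0.0914 to 27.4 ± 0.442 TPM), which rose, and HMOX2 (59.3 ± 2.92 to 38.3 ± 2.37 TPM), which fell (limma adjusted p = 0.00631, 0.0150, 0.00951 and 0.0160).

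Among 10 tested erythroid transcription factors and cofactors in NCI-H146, 1 rose and 3 fell, with a median log2 fold change of -0.42. LMO2, the adaptor that bridges TAL1 and GATA factors, rose from 35 and 29 counts in the controls to 123 and 139 counts (2.03 ± 0.457 and 8.50 ± 0.245 CPM, a log2 difference of 2.06, edgeR adjusted p = 0.00453). GATA2, the stem and progenitor cell member of the GATA family, fell from 2220 and 2056 counts to 932 and 1135 (135 ± 20.0 to 67.0 ± 5.46 CPM, -1.02, edgeR adjusted p = 0.0220). RUNX1, a haematopoietic factor, fell from 39.0 ± 11.5 to 16.2 ± 3.37 CPM (edgeR adjusted p = 0.0152). CBFA2T3, a corepressor found with TAL1, went from 10 and 11 counts to 1 and 1. CBFA2T3 passed the filter on low counts through the control libraries alone, so its call, 1 of the 3 lower, is a description. LDB1 and TCF3, general partners in TAL1 complexes, did not pass. In NCI-H1688 the 9 tested genes of this list gave 0 calls by limma, with a median of 0.08, 1 gene at an unadjusted p under 0.05 and 0 calls also without a trend. NFE2, at 0.262 and 0.428 TPM in the controls and 1.61 and 2.34 TPM in those labelled as knockdown, had a limma adjusted p of 0.0630. It reached the minimum mean for testing through the libraries labelled as knockdown alone, so this value is a description.

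Of the genes known to repress embryonic or fetal globin genes, 17 were tested in NCI-H146, and 2 rose and 2 fell, with a median log2 fold change of -0.06. SOX6 fell from 22.4 ± 1.33 to 9.88 ± 0.294 CPM and the Krüppel-like repressor gene KLF3 from 101 ± 13.1 to 53.3 ± 9.09 CPM, while the NuRD complex genes MBD3 (60.0 ± 3.25 to 163 ± 55.7 CPM) and HDAC1 (84.4 ± 5.32 to 150 ± 14.3 CPM) rose (edgeR adjusted p = 0.0184, 0.0346, 0.00683 and 0.0447). BCL11A, the best known repressor of fetal globin, was at 30.2 ± 6.43 and 23.7 ± 4.53 CPM and did not pass (edgeR adjusted p = 0.441). In NCI-H1688, 0 of 14 tested genes rose and 2 fell, the maintenance methyltransferase gene DNMT1 (58.8 ± 0.420 to 40.1 ± 2.86 TPM) and NR2F2 (22.9 ± 1.72 to 16.1 ± 0.451 TPM), with limma adjusted p-values of 0.0187 and 0.0320 and a list median of -0.08. Of the red cell membrane and maturation genes, 0 of 10 tested were called in NCI-H146 by edgeR (median -0.07, 2 at an unadjusted p under 0.05), 0 by limma-voom and 1, BNIP3L, by DESeq2. In NCI-H1688, 2 of 7 rose, the carbonic anhydrase gene CA2 (7.79 ± 0.716 to 15.0 ± 0.829 TPM) and the mitophagy receptor gene BNIP3L (16.3 ± 0.893 to 27.7 ± 2.03 TPM), and 1 fell, the survival gene BCL2L1 (258 ± 11.2 to 174 ± 5.51 TPM), with limma adjusted p-values of 0.0159, 0.0159 and 0.0117 and a list median of 0.35. Of the 16 NCI-H146 calls with the smallest adjusted p, up to 4 for each of the neighbour and pathway lists, 0 were kept without control replicate 2, 3 without control replicate 3 (STEAP3 and HMOX1 among them), CBFA2T3 being below the filter in both of these fits, and 15 without either KLF9 shRNA replicate, where CBFA2T3 was lost. In NCI-H1688, limma without a trend made 1 call among the neighbours in place of 4, 0 in place of 2 for haem synthesis, 2 in place of 8 for haem breakdown and iron, 0 in place of 2 for the repressors and 2 in place of 3 for the red cell genes. Of the 15 NCI-H1688 calls chosen in the same way, 0 were kept without any 1 of the 4 libraries.

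**Figure D4:**
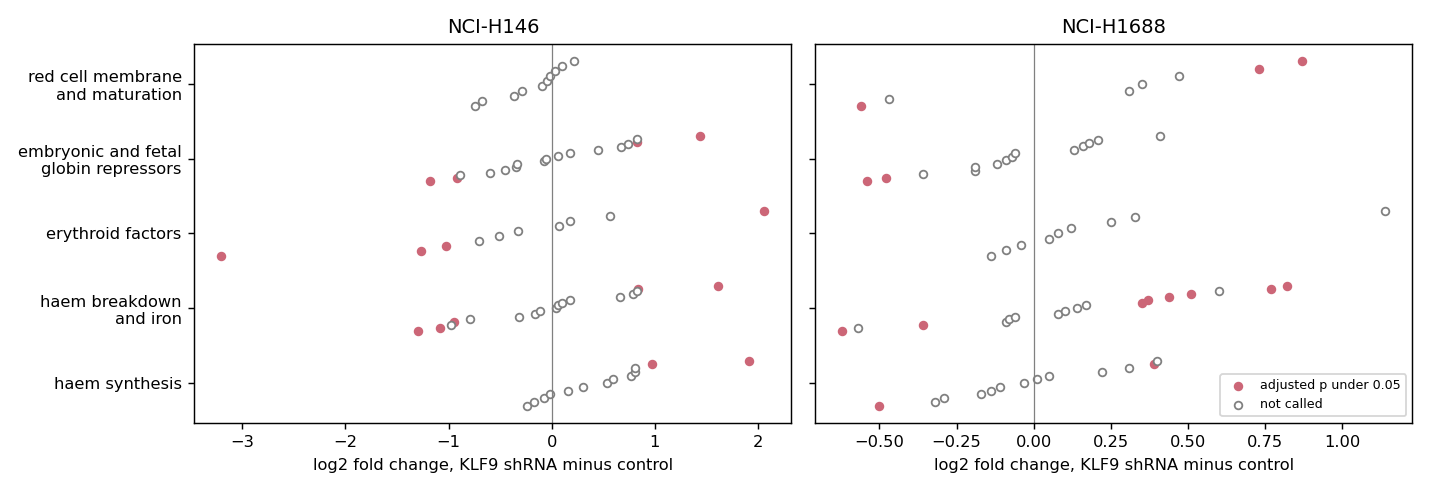
Log2 fold change (KLF9 shRNA minus control) of each tested gene in the haem and erythroid lists, with the 10 genes of the main list left out, for NCI-H146 (left) and NCI-H1688 (right, on the log2(TPM + 1) scale); filled points have an adjusted p under 0.05. In NCI-H146 the called genes include LMO2 at 2.06 and STEAP3 at 1.61 on the higher side and CBFA2T3 at -3.20 on the lower side. CBFA2T3 passed the filter on low counts through the control libraries alone.

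The genes most like HBA2 across the 4 NCI-H146 libraries were found by the distance between profiles of log2(CPM + 1), each centred on its own mean. The nearest 5 of the tested genes were RGS2 (distance 0.374), PPP1R15A (0.411), THBS1 (0.415), KLF4 (0.478) and FOS (0.535). HBA1 ranked 37 at 1.47 and HBQ1 ranked 9645 at 3.72. The added 1 shrinks changes of low genes such as HBA1, at 0.499 to 8.15 CPM, so its rank depends partly on its level. The fitted log2 fold changes of HBA1 and HBA2 were -3.14 and -3.39. RGS2, a regulator of G protein signalling, stood at 54.4 and 23.3 CPM in the controls and 2.23 and 3.99 CPM in the knockdown libraries, so control replicate 2 was the highest and KLF9 shRNA replicate 1 the lowest, as for HBA2. PPP1R15A, a stress-induced phosphatase subunit gene, stood at 549 and 248 against 35.5 and 52.7 CPM, and the matrix glycoprotein gene THBS1 at 75.6 and 35.1 against 3.79 and 10.2 CPM. The Krüppel-like factor gene KLF4 and the immediate early gene FOS followed the same order of libraries. With 4 libraries of which the groups set most of the distance, this is a description, and it says nothing of shared control.

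**Figure D5:**
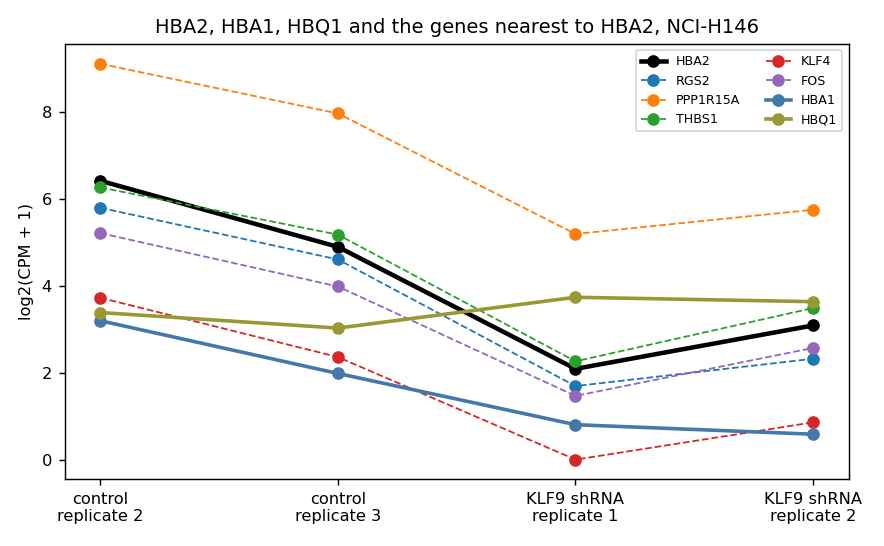
log2(CPM + 1) in each NCI-H146 library of HBA2, HBA1 and HBQ1 (solid lines) and of the 5 genes with profiles nearest to HBA2 (dashed lines); lines join the values of a gene and imply no order of libraries. HBA2 and its nearest genes are highest in control replicate 2 and lowest in KLF9 shRNA replicate 1, whereas HBQ1 is slightly higher in the knockdown libraries.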

How the data were processed

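Per the submitters' processing notes, STAR 2.5.1, DESeq2 and GRCh38 (hg38) were used, with no step given for any of them. How reads were counted, with which annotation and whether by strand, is not given in the sources used here. For NCI-H146 the authors deposited raw read counts. The deposited NCI-H1688 values were TPM, whose columns summed to between 843186 and 885808, for which the sources used here give no reason. For the 1599 NCI-H1688 rows with a repeated gene name, each name kept its row of highest mean. The count test was edgeR 4.0.16 in R 4.3.3 (quasi-likelihood, TMM, filterByExpr), and CPM used TMM totals. TPM were tested with limma 3.58.1 (intensity trend) on log2(TPM + 1) where the gene averaged 1 TPM or more, a scale that understates changes of low genes. Benjamini-Hochberg adjustment ran over all genes tested in a line, and an adjusted p under 0.05 is a call. DESeq2 1.42.0 and limma-voom were alternatives. The fits were tested on simulated data. A standard error in edgeR is the fold change divided by the square root of F. Reads behind low TPM were estimated from the lowest cluster of TPM times exon length. The members and lists were chosen with earlier results of these data known. Named genes were the members, KLF9, up to 4 called genes per list and line with the smallest adjusted p, the neighbour and globin lists, erythroid markers and the 5 genes nearest to HBA2. No NCI-H1688 gene profile was compared with a member, since no member was tested there. Promoter sequences of HBA1, HBA2, HBG1, HBG2, HBE1, HBZ and HBQ1 were not used here. Some genes that the rule for named genes covers are not reported here.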

Additional observations from a re-analysis of the deposited data

Results flagged for a closer look

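KLF9 and 4 genes of the lists moved in opposite directions in the lines, with groups that did not overlap in either, and the difference between lines was not tested. KLF9 had a log2 fold change of -1.17 in NCI-H146 and 0.92 in NCI-H1688. HMOX2 was at 0.84 and -0.62, POLR3K at 1.47 and -0.78, SNRNP25 at 1.04 and -0.67 and UROD at 0.97 and -0.50 in the same order. The NCI-H1688 values are on the log2(TPM + 1) scale and belong to libraries in which KLF9 itself went against the labels.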

How the results depend on the processing

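The genes recomputed under each alternative were KLF9, HBA2, HBA1, HBQ1, the 5 genes nearest to HBA2 and the list genes called with the smallest adjusted p, and none of these changed direction. Other named genes were not followed one by one across the alternatives. Over the 7 fits with all NCI-H146 libraries, HBA2 stayed between -3.40 and -3.29, HBA1 between -3.15 and -2.93 and HBQ1 between 0.51 and 0.53 on the log2 scale, and leaving out a library gave -4.11 to -2.38, -3.70 to -2.20 and 0.32 to 0.76. The count of genes called in NCI-H146 (2250) was 51 to 5026 with a library left out. In NCI-H1688 (2366 calls, 939 higher and 1427 lower) it was 943 with no filter on low values, 834 in limma without a trend (488 higher and 346 lower) and 0 to 24 with a library left out, where the 2 fits with 0 had 3298 and 3327 genes at an unadjusted p under 0.05 (limma). With a lone library in a group, its spread was assumed to be that of the other group. In NCI-H1688 the fit with the replicate number as a block (replicate block) called 1218 genes. Deviations of same-numbered libraries correlated at -0.005, so no effect shared by same-numbered libraries was seen. Whether these libraries were handled together is not given. No paired analysis was possible in NCI-H146 because its groups share a single replicate number. The sum of HBG1 and HBG2 had too few reads to be tested. Of the 16 such NCI-H146 list calls, no filter on low counts lost 4 (HMOX1, HMOX2, KLF3 and HDAC1) and limma-voom 1 (HMOX1), and DESeq2 gave no adjusted p for CBFA2T3. Of the 15 in NCI-H1688, limma without a trend lost 10 (SNRNP25, RHBDF1, FAM234A, UROD, CPOX, TFRC, HMOX2, DNMT1, NR2F2 and BCL2L1), no filter 6 (SNRNP25, RHBDF1, FAM234A, CPOX, FTH1 and NR2F2), the replicate block 4 (RHBDF1, FAM234A, CPOX and NR2F2), TMM scaling 3 (RHBDF1, FAM234A and CPOX) and a pseudocount of 5 TPM 1 (FAM234A). Depth limits HBZ, HBG2, HBE1 and TAL1 in NCI-H146 and all 10 genes in NCI-H1688.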

Other observations

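Markers of other blood lineages were also measured beside the globin genes. In NCI-H146, HDC, the histidine decarboxylase gene of mast cells and basophils, rose from 159 ± 19.8 to 444 ± 61.6 CPM (SD, n = 2 each, edgeR adjusted p = 0.00584). The mast cell gene CPA3 had 0 or 1 counts, and the tryptase gene TPSAB1 and the platelet genes PF4, PPBP and GP9 had no row. Among the other platelet genes, ITGA2B had 103 and 85 counts in the controls and 72 and 183 in the knockdown libraries. It was not called (edgeR adjusted p = 0.464). GP1BA had 4 to 11 counts and was not tested. The pan-leukocyte gene PTPRC had 197 and 205 counts in the controls and 153 and 166 in the knockdown libraries and was not called (edgeR adjusted p = 0.549). The 8 leukocyte markers with a row summed to 17.1 to 18.5 CPM in the controls and 16.7 to 18.3 CPM in the knockdown libraries. In NCI-H1688, CD14 rose from 0.632 ± 0.0447 to 6.78 ± 0.437 TPM and LAPTM5 from 8.52 ± 0.160 to 14.9 ± 0.490 TPM (limma adjusted p = 0.00743 and 0.0143), and PTPRC was at most 0.0317 TPM. CD14 and LAPTM5 were the 2 leukocyte markers tested there, and 6.36% of all genes tested were called higher. CD14 reached the minimum mean for testing through the libraries labelled as knockdown alone, so its call is a description. The part of such cells in the globin values was not tested.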
